A study of Mus musculus with 6 samples.

Results

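The clock output factors are the transcription factors that the circadian clock switches on and that pass its rhythm to other genes. They were described here in mouse cerebellum as 9 genes, chosen by name with earlier results of these data known: the PAR-bZIP activators *Dbp*, *Tef* and *Hlf*, the REV-ERB repressors *Nr1d1* and *Nr1d2*, and the repressors *Ciart*, *Nfil3*, *Bhlhe40* and *Bhlhe41*. All 9 were present among the 53715 genes of the deposited table, and all 9 were among the 16330 genes with enough counts to be tested.

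The samples were cerebella of male C57BL/6 mice, 4 weeks old, kept under 12 h of light and 12 h of dark. The study's methods give the background of both parent lines as C57BL/6J. One group was 3 control mice, labelled wild type. The other was 3 *Slc39a8*-NSKO mice, in which Cre under the Synapsin I promoter deletes a floxed *Slc39a8* in neurons. *Slc39a8* encodes ZIP8, a transporter that carries manganese and other metals into cells. Elsewhere the study calls its control mice either wild type or *Slc39a8* fl/fl, so whether these 3 controls carried floxed alleles is not settled here. Cre from this promoter may act unequally across brain regions, and cells that do not use the promoter keep the gene. The time of day at which the cerebella were taken is not given in the sources used here.

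Each mouse gave 1 library with 14431260 to 20844267 estimated counts. The deleted gene was at 4.78, 3.20 and 2.83 CPM (counts scaled to the library total and edgeR's TMM factors) in the control mice and at 1.90, 2.05 and 2.18 CPM in the *Slc39a8*-NSKO mice. The groups did not overlap, and the log2 fold change was −0.83 (SE 0.24, n = 3 per group, adjusted p = 0.534 by edgeR's quasi-likelihood test with Benjamini-Hochberg adjustment). Marker genes of granule cells summed to 3962 to 4093 CPM in controls and 3941 to 4351 CPM in *Slc39a8*-NSKO mice, and those of Purkinje cells to 5920 to 6869 and 6534 to 7076 CPM, so the libraries held cerebellar neurons. In this bulk tissue, fewer cells of a type and less RNA per cell cannot be told apart. Summed markers of Bergmann glia and astrocytes were higher in *Slc39a8*-NSKO mice without overlap (1973 to 2282 against 2339 to 2394 CPM), as were those of microglia (68.0 to 75.5 against 78.7 to 82.5 CPM) and of heart muscle (2.03 to 2.92 against 11.7 to 13.5 CPM). Of the 6 genes in each list 0, 0 and 3 passed, the last being *Myh6*, *Actc1* and *Tnnt2*, which rose. The atrial gene *Myl7*, too low to be tested, was at 0 in all controls and at 0.15, 0.15 and 0.11 CPM in *Slc39a8*-NSKO mice. *Tnni3* of the heart muscle list had a log2 fold change of 0.27 (edgeR adjusted p = 0.994). All 6 choroid plexus markers were higher on average in *Slc39a8*-NSKO mice (median log2 fold change 0.38, sums of 766 to 1107 against 901 to 1550 CPM) and all 6 oligodendrocyte markers lower (median −0.071, sums of 8160 to 9290 against 7585 to 9152 CPM), with overlapping sums and 0 genes past the threshold by edgeR. The part of these shifts in the values given here was not tested. Transcripts of the pineal gland were scarce, with no more than 5 counts per mouse for 4 of its 6 markers.

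The circadian clock of each cell is a feedback loop. CLOCK and BMAL1, the product of *Arntl*, bind E-boxes and drive the *Per* and *Cry* genes, whose proteins then block them. The same pair drives *Dbp*, *Nr1d1*, *Nr1d2*, *Ciart* and the *Bhlhe* genes, so these transcripts rise and fall strongly over the day in many tissues. PAR-bZIP proteins activate genes through D-boxes, and NFIL3 represses through the same boxes. REV-ERB proteins repress *Arntl* and *Nfil3* through ROR elements, which closes a further loop.

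The elements of this circuit were looked for in the promoters of the output factors. They are the letters through which these genes are known to read the clock. The cyclic AMP response element, which is no part of the circuit described above, was searched for as well. RefSeq promoters of the build GRCm38.p6, running from 250 bases before to 50 after an annotated start, held 8 of the 9 genes, with 9 promoters, since *Tef* has 2. An E-box was searched as CACGTG, a D-box as TTATGTAA or TTACGTAA, a cyclic AMP response element as TGACGTCA and the core of a ROR element as TAGGTCA or TGGGTCA, each on both strands, with matches of different motifs counted apart even where they would share bases. The E-box was found in promoters of *Tef*, *Ciart* and *Bhlhe41*, against 7.15% of the 32851 promoters searched. *Ciart* held 3. The cyclic AMP response element was found in *Hlf* (1.79% of all promoters) and the ROR core in *Nfil3* (6.45%), and no promoter of these genes held the D-box (1.06%). The promoters of *Dbp*, *Nr1d1* and *Nr1d2* held 0 matches of any of these motifs. Elements outside these bases or with other letters were not searched for. A match is a description of the letters, and the data hold no binding measurement.

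Each match except those of *Ciart* is shown with its flanks on the gene's own strand, the motif in capitals, from chr15:81802534-81802563 (+), chr15:81811264-81811293 (+), chr6:145865556-145865585 (−), chr11:90390908-90390937 (−) and chr13:52981033-52981062 (−) in this order. The match begins 127, 138, 153, 9 and 12 bases before the RefSeq start. By the GENCODE gene coordinates given below, the *Tef* matches and the *Nfil3* match lie inside the gene. The capitals of *Nfil3* are the ROR core read on the other strand.
Tef, first promoter, E-box: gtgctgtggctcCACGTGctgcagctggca
Tef, second promoter, E-box: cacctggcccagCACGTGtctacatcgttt
Bhlhe41, E-box: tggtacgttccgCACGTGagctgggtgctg
Hlf, cyclic AMP response element: ggtgcgggcccTGACGTCActcttgtcagg
Nfil3, ROR core: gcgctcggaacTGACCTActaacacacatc

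The *Ciart* promoter is shown whole up to the first annotated transcript base, at chr3:95882252-95882478 (−), because it is the only promoter among these with more than 1 E-box. The 3 E-boxes, in capitals, begin 116, 58 and 44 bases before the RefSeq start.
Ciart: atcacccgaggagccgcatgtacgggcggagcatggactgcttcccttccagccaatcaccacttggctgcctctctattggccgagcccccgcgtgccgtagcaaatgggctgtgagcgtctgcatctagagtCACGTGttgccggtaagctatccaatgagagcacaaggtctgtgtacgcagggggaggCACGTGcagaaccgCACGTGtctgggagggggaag

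None of the 9 output factors passed the test for a difference between *Slc39a8*-NSKO and control cerebellum, and 8 of them had means between 90.3% and 106% of the control mean. The exception in size was *Nfil3*, the D-box repressor, which was at 70.3% of the control level, with all 3 *Slc39a8*-NSKO mice below all 3 controls. *Nr1d1* and *Bhlhe41* were also lower in every *Slc39a8*-NSKO mouse, by smaller amounts. The activators *Dbp*, *Tef* and *Hlf* differed by at most 0.04 on the log2 scale.

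At an adjusted p below 0.05 by edgeR's quasi-likelihood test, 0 of the 9 were called, against 0.098% of all genes tested (16 genes). DESeq2 and limma-voom also called 0 of the 9, with 37 and 12 genes called in all. At an unadjusted p below 0.05, 2 of the 9 (*Nr1d1* and *Nfil3*) passed with edgeR, against 5.39% of all genes. DESeq2 and limma-voom, run on the same libraries, each gave 2 as well. Their shares over all genes at this unadjusted threshold were not computed. In 3 of the 9 every *Slc39a8*-NSKO mouse was below every control mouse, which held for 5.26% of all genes, and in 0 of the 9 every such mouse was above, which held for 5.07%. The median log2 fold change of the 9 was 0.0020, against 0.0011 over all genes tested, with 5 positive and 4 negative values. Leaving out *Nfil3* put the median at 0.0081.

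**Figure D1:**
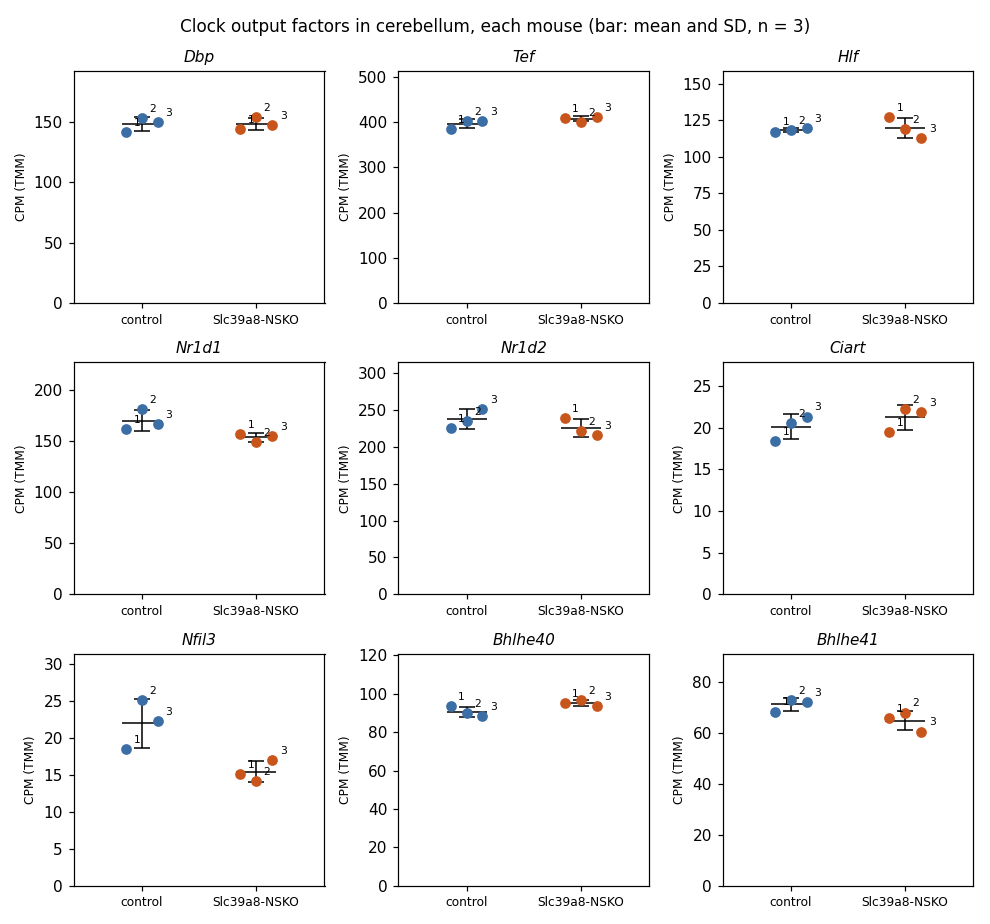
Level of each clock output factor in CPM (vertical axes, each from 0) in the 3 control and 3 *Slc39a8*-NSKO mice; points are mice with their replicate number, horizontal bars the group mean and error bars the SD. The groups are apart in *Nfil3*, *Nr1d1* and *Bhlhe41* and overlap in the other 6 panels.

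*Dbp* (ENSMUSG00000059824.12, chr7:45705088-45710203, + strand) encodes the D-box binding protein, one of the most strongly rhythmic transcripts known. Its level was 142, 154 and 150 CPM in control mice 1, 2 and 3 and 144, 154 and 147 CPM in *Slc39a8*-NSKO mice 1, 2 and 3. The mice of both groups covered the same range, with mouse 1 lowest in each. The means were 149 ± 5.91 and 149 ± 5.11 CPM (SD, n = 3), a log2 fold change of 0.0020 (SE 0.054). Its 95% interval, −0.12 to 0.12, corresponds to a change of −7.66% to 8.59% (adjusted p = 0.998, edgeR's quasi-likelihood test with Benjamini-Hochberg adjustment).

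*Tef* (ENSMUSG00000022389.15, chr15:81802421-81826863, + strand) encodes thyrotroph embryonic factor, a PAR-bZIP relative of DBP. It had 386, 403 and 403 CPM in the control mice and 410, 401 and 411 CPM in the *Slc39a8*-NSKO mice. Control mouse 1 was lowest, and the groups overlapped. It differed by a log2 fold change of 0.04 (SE 0.048, 95% interval −0.07 to 0.14, edgeR adjusted p = 0.994). The highest mouse had 1.07 times the level of the lowest.

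*Hlf* (ENSMUSG00000003949.16, chr11:90336536-90390895, − strand) encodes hepatic leukemia factor, the last of the PAR-bZIP activators. Control mice had 117, 119 and 120 CPM, and *Slc39a8*-NSKO mice 127, 119 and 113 CPM. The 3 controls lay between the highest and the lowest *Slc39a8*-NSKO mouse. This gave a log2 fold change of 0.01 (SE 0.057, 95% interval −0.11 to 0.14, edgeR adjusted p = 0.995).

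*Nfil3* (ENSMUSG00000056749.7, chr13:52967209-52981073, − strand) encodes the bZIP repressor also known as E4BP4, which binds the boxes of the PAR-bZIP activators. Control mice had 18.5, 25.1 and 22.2 CPM, from 384, 361 and 346 counts, and *Slc39a8*-NSKO mice had 15.1, 14.2 and 17.0 CPM, from 301, 277 and 320 counts. Every *Slc39a8*-NSKO mouse was below the lowest control, and control mouse 2 was highest. The means were 22.0 ± 3.29 and 15.4 ± 1.42 CPM (SD, n = 3), a log2 fold change of −0.50 (SE 0.12). Its 95% interval, −0.75 to −0.25, lies below 0 and corresponds to a change of −40.5% to −16.1%, but before adjustment p was 0.000711 and after adjustment over all genes 0.228 (edgeR's quasi-likelihood test with Benjamini-Hochberg adjustment). The exact two-sided permutation p was 0.1, the smallest that 3 mice against 3 allow.

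The *Nfil3* difference kept its sign in all 14 alternative analyses, with log2 fold changes from −0.62 to −0.40 and adjusted p from 0.000374 to 0.832. It passed the threshold in 2 of them, with no filter on low counts (adjusted p = 0.000374) and without control mouse 1 (0.0309, both edgeR). These settings called 178 and 38 genes in all, against 16 in the main edgeR fit. DESeq2 gave an adjusted p of 0.129 and limma-voom 0.352.

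*Nr1d1* (ENSMUSG00000020889.11, chr11:98767932-98775333, − strand) encodes REV-ERBα, a heme-binding nuclear receptor that represses *Arntl*. Control mice had 162, 182 and 166 CPM and *Slc39a8*-NSKO mice 157, 149 and 155 CPM. Every *Slc39a8*-NSKO mouse was below every control mouse, and the gap between the nearest mice, control 1 and NSKO 1, was small beside the range of the controls. The means were 170 ± 10.3 and 154 ± 4.21 CPM (SD, n = 3). Their log2 fold change was −0.15 (SE 0.057, 95% interval −0.27 to −0.02), with an edgeR p of 0.0228 before and 0.867 after adjustment and an exact permutation p of 0.1.

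*Nr1d1* lies tail to tail with *Thra*, the thyroid hormone receptor α gene, on the opposite strand, and their exons share 263 bases. The *Nr1d1* counts were fractional, and whether the counting used strand is not given in the sources used here, so some reads may have been divided between the pair. *Thra* itself had 436, 458 and 409 CPM in control mice and 422, 440 and 441 CPM in *Slc39a8*-NSKO mice, in overlap, with a log2 fold change of −0.00032 (edgeR adjusted p = 0.9995). The log2 fold change of the sum of both genes was −0.04. *Thra* had the higher level and hardly differed, so this sum cannot show whether reads were divided between the pair.

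*Nr1d2* (ENSMUSG00000021775.11, chr14:18204054-18239127, − strand) encodes REV-ERBβ, the partner of REV-ERBα in repressing *Arntl*. It had 225, 235 and 252 CPM in control mice and 239, 221 and 215 CPM in *Slc39a8*-NSKO mice. NSKO mouse 1 was above control mice 1 and 2, so the groups overlapped. The log2 fold change was −0.07 (SE 0.059, 95% interval −0.20 to 0.05, edgeR adjusted p = 0.994).

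*Ciart* (ENSMUSG00000038550.10, chr3:95878503-95882251, − strand) encodes CHRONO, a repressor of the CLOCK and BMAL1 pair. It had 18.4, 20.6 and 21.3 CPM in control mice and 19.5, 22.3 and 21.9 CPM in *Slc39a8*-NSKO mice. Replicate 1 was lowest in each group, and the groups overlapped. The log2 fold change was 0.08 (SE 0.090, 95% interval −0.11 to 0.28, edgeR adjusted p = 0.994), so the interval was wider than that of the more highly counted members.

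*Bhlhe40* (ENSMUSG00000030103.11, chr6:108660629-108666925, + strand) and *Bhlhe41* (ENSMUSG00000030256.11, chr6:145858243-145865558, − strand) encode DEC1 and DEC2, basic helix-loop-helix repressors that compete for E-boxes. *Bhlhe40* had 93.7, 89.8 and 88.6 CPM in control mice and 95.2, 96.7 and 93.4 CPM in *Slc39a8*-NSKO mice. Only NSKO mouse 3 fell within the control range. Its log2 fold change was 0.07 (SE 0.054, 95% interval −0.05 to 0.18, edgeR adjusted p = 0.994).

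*Bhlhe41* pointed the other way, at 68.5, 73.0 and 72.4 CPM in control mice and 66.0, 68.1 and 60.7 CPM in *Slc39a8*-NSKO mice. The groups did not overlap, although control mouse 1 and NSKO mouse 2 were nearly level. Its log2 fold change was −0.13 (SE 0.063, 95% interval −0.27 to 0.0017), with an edgeR p of 0.0526 before and 0.916 after adjustment and an exact permutation p of 0.1. Its exons share 1280 bases with the antisense transcript *Gm43909*, and its counts were fractional.

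Counts were whole numbers, within 0.005, in every mouse for 6 of the 9 genes. The 3 with fractional counts, *Dbp*, *Nr1d1* and *Bhlhe41*, each overlap exons of a gene on the other strand. So do *Tef*, by 193 bases with *Gm17597*, and *Bhlhe40*, by 118 bases with *0610040F04Rik*, and their counts were whole. For *Dbp* that gene is *Sphk2*, a sphingosine kinase, with 539 shared bases and a log2 fold change of its own of 0.03 (edgeR adjusted p = 0.994).

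**Figure D2:**
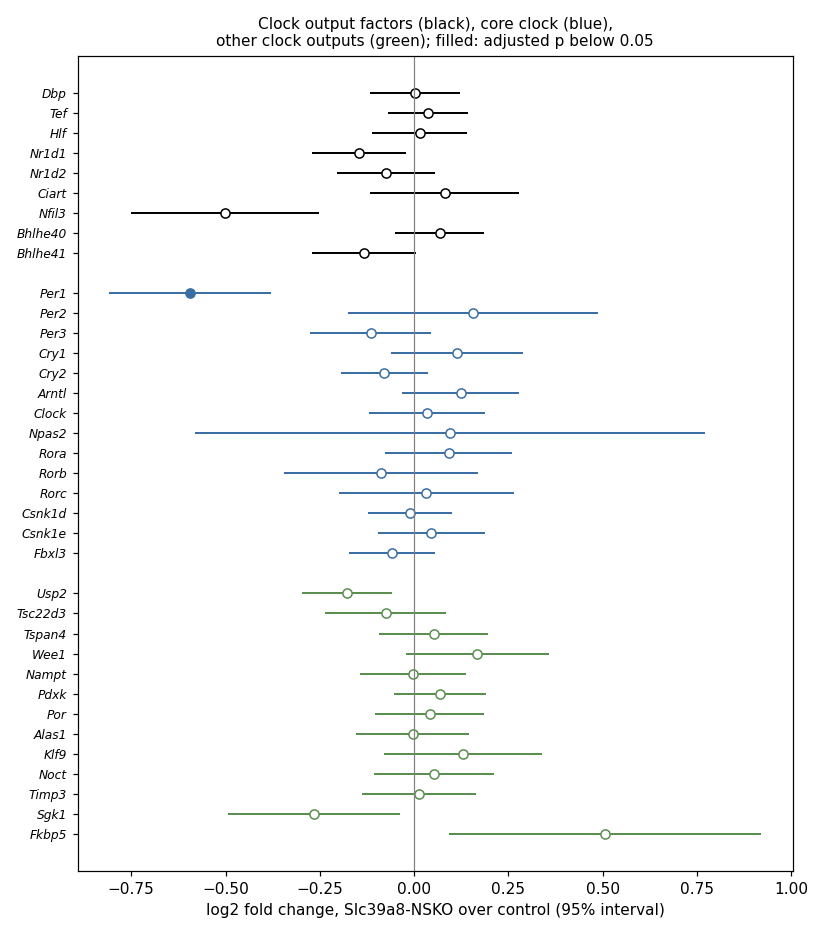
Log2 fold change of *Slc39a8*-NSKO over control (horizontal axis) with its 95% interval for the output factors, 14 core clock genes and 13 other clock outputs (vertical axis), from edgeR's fit over all genes. *Nfil3* at −0.50 stands next to *Per1* at −0.59, the only filled point, and the intervals of *Dbp*, *Tef* and *Hlf* stay within 0.14 of 0.

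The output factors were next set beside the loop that drives them. Of 14 core clock genes tested, 1 passed, against 0.098% of all genes tested. This was *Per1*, the light-responsive period gene, which fell. It had 147, 181 and 203 CPM in control mice and 117, 107 and 128 CPM in *Slc39a8*-NSKO mice, with no overlap. The log2 fold change was −0.59 (SE 0.099, 95% interval −0.81 to −0.38, edgeR adjusted p = 0.0435), and the call was lost with limma-voom (adjusted p = 0.0723) and when any of 5 of the 6 mice was left out. It held with DESeq2 (adjusted p = 1.56e-06) and without control mouse 1 (edgeR adjusted p = 0.000743). Over the 14 alternative analyses the log2 fold change ran from −0.71 to −0.48. The study also reported lower *Per1* by qPCR in other RNA samples. The 95% intervals of *Dbp*, *Tef*, *Hlf*, *Nr1d1*, *Nr1d2*, *Ciart*, *Bhlhe40* and *Bhlhe41* all lie above the upper bound of *Per1*, and that of *Nfil3* overlaps it.

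The other limbs of the loop gave values near those of the output factors. *Arntl*, the target of the REV-ERB repressors, had 27.0, 29.6 and 27.1 CPM in control mice and 29.99, 30.4 and 30.5 CPM in *Slc39a8*-NSKO mice, higher without overlap. Its log2 fold change was 0.12, with an edgeR p of 0.105 before and 0.974 after adjustment. *Per2*, a period gene driven by the same E-box mechanism, was at 34.7, 44.6 and 61.8 CPM in control mice and 50.8, 46.8 and 58.5 CPM in *Slc39a8*-NSKO mice, in overlap (log2 fold change 0.16, edgeR adjusted p = 0.994). The median over the 14 core clock genes was 0.034.

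Of 14 other known clock outputs, 13 were tested, since *Avp* had too few counts, and 0 passed with edgeR at an adjusted p below 0.05. At an unadjusted p below 0.05 with edgeR, 3 of the 13 passed, against 5.39% of all genes tested. These were *Usp2*, a deubiquitinase gene with a strong rhythm in many tissues, *Sgk1* and *Fkbp5*. *Usp2* had 97.3, 102 and 102 CPM in control mice and 91.6, 86.9 and 87.2 CPM in *Slc39a8*-NSKO mice, lower without overlap (log2 fold change −0.18, edgeR p of 0.00566 before and 0.640 after adjustment). *Sgk1* and *Fkbp5*, which glucocorticoids also induce, had log2 fold changes of −0.27 and 0.51 (edgeR adjusted p = 0.867 and 0.860). The median over the 13 was 0.041.

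**Figure D3:**
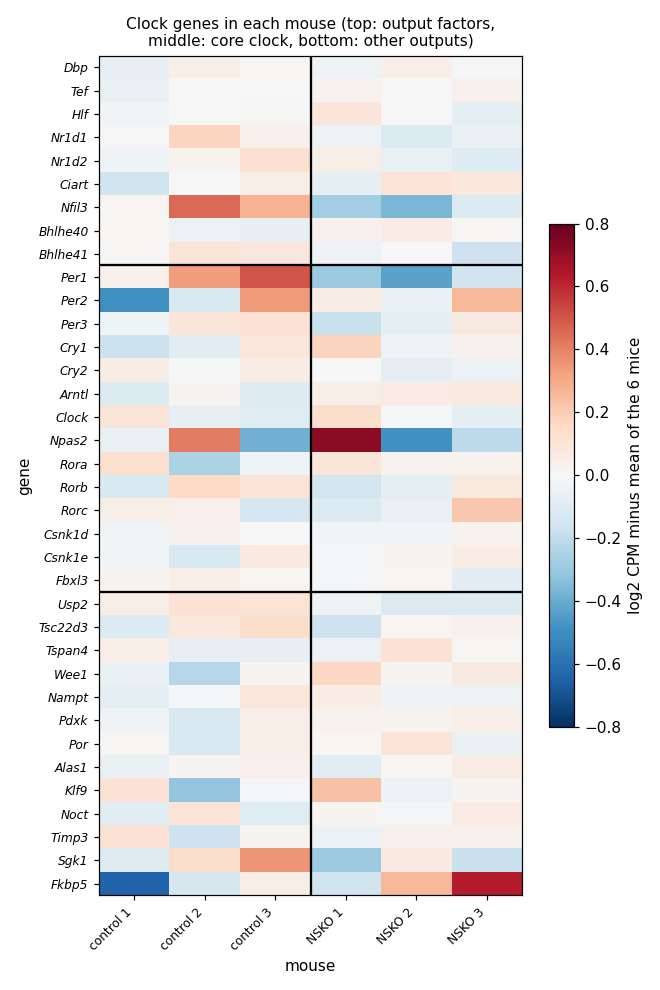
Deviation of log2 CPM from the mean of the 6 mice (colour scale) for the output factors, the core clock and the other clock outputs (rows) in each mouse (columns). Among the output factors the darkest row is *Nfil3*, and *Dbp*, *Tef* and *Hlf* are pale in all 6 mice.

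Because these transcripts are rhythmic, the spread between mice was described as well. Over all 6 mice the highest level divided by the lowest was 1.07 for *Tef*, 1.09 for *Dbp* and *Bhlhe40*, 1.12 for *Hlf*, 1.17 for *Nr1d2*, 1.20 for *Bhlhe41*, 1.21 for *Ciart*, 1.22 for *Nr1d1* and 1.77 for *Nfil3*. The median of this ratio over the 10289 genes with a mean of at least 10 CPM was 1.18. By this ratio *Dbp*, *Tef* and *Bhlhe40* were among the steadier genes, with 9.57%, 3.93% and 11.3% of those genes showing a smaller ratio. In contrast, 99.0% had a smaller ratio than *Nfil3*. The ranking was not matched for level, and the part of the number of counts in it was not tested. No mouse was the highest or the lowest for most members: control mouse 1 was lowest for 3 and highest for 0, and NSKO mouse 3 was lowest for 3.

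Levels of different genes were compared per length, as CPM per kilobase of all annotated exons, over the 6 mice. *Nr1d1* stood at 52.6 ± 3.73, *Tef* at 51.2 ± 1.17 and *Dbp* at 49.7 ± 1.65 (SD, n = 6), and these neighbours do not differ beyond their spread over all mice. Within the groups *Nr1d1* was above *Tef* in the 3 control mice (52.8, 59.1 and 54.1 against 49.0, 51.3 and 51.2) and below it in the 3 *Slc39a8*-NSKO mice (51.1, 48.4 and 50.4 against 52.2, 51.0 and 52.3). *Nr1d2* followed at 42.8 ± 2.45, with its highest mouse (46.5) below the lowest for *Dbp* (47.5). *Bhlhe40* was at 19.7 ± 0.664 and *Hlf* at 17.8 ± 0.687, with ranges that overlapped. *Bhlhe41* at 10.1 ± 0.674, *Nfil3* at 9.23 ± 2.09 and *Ciart* at 9.14 ± 0.651 formed the low end and overlapped one another. *Nfil3* was above *Ciart* in the 3 control mice (9.15, 12.4 and 10.97 against 8.15, 9.10 and 9.44) and below it in the 3 *Slc39a8*-NSKO mice (7.44, 7.02 and 8.39 against 8.64, 9.86 and 9.68).

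The order at the top and the switches between the groups also depend on the length used. Per kilobase of the longest transcript, *Tef* was at 91.4, *Dbp* at 80.9, *Nr1d1* at 59.5 and *Nr1d2* at 49.6 CPM, so *Nr1d1* moved from the first to the third place. *Tef* was then above *Nr1d1* in every mouse (87.6 to 93.5 against 54.8 to 66.9), with no switch between the groups. *Bhlhe40* at 29.8 and *Hlf* at 21.1 kept the middle, and *Bhlhe41* at 11.1, *Ciart* at 10.7 and *Nfil3* at 9.23 the low end. By this length *Nfil3* was above *Ciart* only in control mouse 2 (12.4 against 10.6). It was below *Ciart* in control mice 1 and 3 and in every *Slc39a8*-NSKO mouse.

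**Figure D4:**
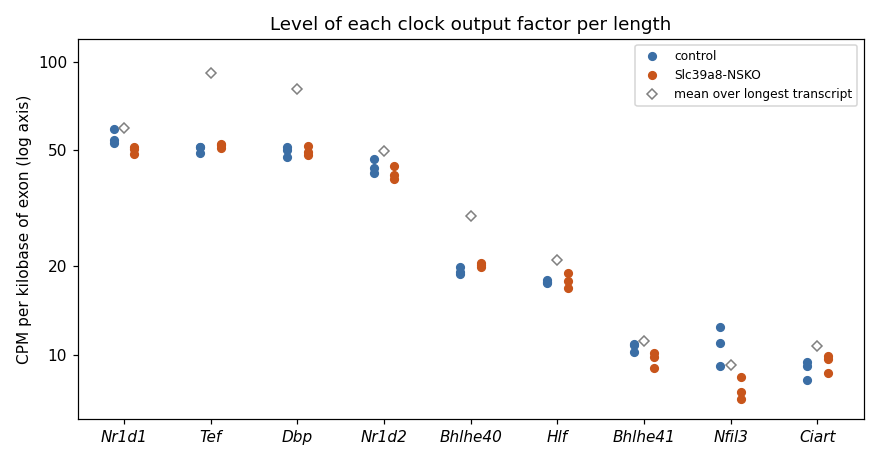
CPM per kilobase of annotated exon (log axis) for each output factor, ordered by the mean; blue points are control mice, orange points *Slc39a8*-NSKO mice and grey diamonds the mean per kilobase of the longest transcript. The first 4 genes stand near or above 40, *Bhlhe40* and *Hlf* near 20 and the other 3 near 10.

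The genes whose level followed *Dbp* and *Nr1d1* most closely across the 6 mice were listed as a description, since 6 points over 16330 genes give high correlations for many pairs. Pearson's r of log2 CPM with *Dbp* was 0.997 for *Lamtor4*, 0.993 for *Lncppara*, 0.992 for *Nt5c3* and for *Isca2*, and 0.986 for *Mrps26*. With *Nr1d1* it was 0.994 for *Rbbp6*, 0.988 for *Gm6145*, 0.987 for *Lmbr1l*, 0.986 for *Zfp40* and 0.977 for *Gm16740*. No gene of the clock lists was among these 10. The mice share their library preparation and group, and no function is read from the likeness.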

How the data were processed

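Poly(A) RNA of 6 cerebella was sequenced, 3 mice per group. The authors deposited expected counts per gene, estimated from STAR alignments (the submitters' processing notes name STAR, RSEM and the build mm10, without versions), with strand use in counting not given. The study calls the 3 mice biological replicates in its methods and technical in a legend, so p-values measure only the spread between these samples. Gene IDs were matched to GENCODE vM21, and 92 spike-in rows were left out. Counts were rounded, filtered with edgeR's filterByExpr, scaled by TMM and tested over 16330 genes with edgeR 4.0.16 (glmQLFit, glmQLFTest; R 4.3.3) and Benjamini-Hochberg adjustment at 0.05. Alternatives used DESeq2 1.42.0, limma-voom (limma 3.58.1), other scalings, filters and left-out mice. All 9 genes are named, with the 5 most correlated genes for *Dbp* and for *Nr1d1*. The 9 genes and all lists were chosen with earlier results of these data known. The fit was tested on simulated counts. The reference promoters are RefSeq's.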

Additional observations from a re-analysis of the deposited data

How the results depend on the processing

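Of 126 alternative values for the 9 output factors, 121 kept their direction and side of the threshold, 2 passed it (*Nfil3*) and 3 changed sign (*Dbp* and *Hlf*, both near 0). For the other named genes 218 were the same, 6 lost the call (*Per1*) and 28 changed sign. With 3 mice per group, the 95% interval of each gene sets the size of difference that these counts can show.

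The 16 genes past the threshold became 37 with DESeq2, 178 with no filter, 27 at an adjusted p below 0.1 and 9 to 38 when 1 mouse was left out (9 without NSKO mouse 2, 38 without control mouse 1). Whether the replicate numbers pair the mice is not settled here. Deviations from the group means correlated at 0.142, 0.116 and 0.0104 for numbers 1, 2 and 3. Controls 1 and 2 correlated best with the NSKO mouse of their own number, and control 3 with NSKO 1 (0.0355). With a replicate block 41 genes passed, 0 of them output factors, and *Nfil3* had an adjusted p of 0.158 (edgeR). Output factors past the threshold were 1 with no filter and 0 to 1 with 1 mouse left out. Core clock genes past it were 0 with limma-voom and 0 to 1 with 1 mouse left out, and other outputs 2 with no filter. Output factors without overlap were 3 to 5 with 1 mouse left out, 5 without NSKO mouse 1, where 20.6% of all genes tested did not overlap, against 10.3% with all mice.

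The sign of *Per2*, at a log2 fold change of 0.16 with all mice, turned without control mouse 1. With 1 mouse left out the ranges were −0.029 to 0.026 for *Dbp*, −0.029 to 0.054 for *Hlf*, −0.032 to 0.40 for *Per2*, −0.026 to 0.10 for *Clock*, −0.35 to 0.32 for *Npas2*, −0.0068 to 0.078 for *Por*, −0.041 to 0.045 for *Nampt*, −0.038 to 0.042 for *Alas1* and −0.040 to 0.040 for *Thra*. *Nampt* was at 0.00040 with DESeq2, 0.00077 with limma-voom, 0.0027 with total counts and 0.0037 with no filter, and *Alas1* at 0.0014 and 0.0019 with the last pair of these. *Thra* was at 0.0021, 0.0011, 0.0048 and 0.0052 with those 4 settings, 0.00058 with at least 10 counts in every mouse, 0.00036 with unrounded counts and 0.00067 with the replicate block. The cause was not tested.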

Other observations

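Ratios between output factors, or between an output factor and *Arntl* or *Per1*, were computed within each mouse, which cancels library scaling. These 7 ratios were chosen after the values were seen and carry no test, and how often other pairs of genes separate the groups was not measured. The groups did not overlap in 5 of them and overlapped in 2. Each ratio without overlap holds a gene whose own level separated the groups (*Nfil3*, *Nr1d1*, *Bhlhe41*, *Arntl* or *Per1*). These ratios are therefore not separate from the values given above. The log2 ratio of *Dbp*, the D-box activator, to *Nfil3*, the D-box repressor, was 2.94, 2.61 and 2.76 in control mice and 3.26, 3.44 and 3.12 in *Slc39a8*-NSKO mice, 1.42-fold higher in the latter and without overlap. The log2 ratio of *Nr1d1* to its target *Arntl* was 2.59, 2.62 and 2.62 in control mice and 2.39, 2.29 and 2.34 in *Slc39a8*-NSKO mice, lower by 0.27 on average and without overlap. The log2 ratio of *Bhlhe40* to *Bhlhe41* was 0.45, 0.30 and 0.29 in control mice and 0.53, 0.50 and 0.62 in *Slc39a8*-NSKO mice, again without overlap. The pairs that overlapped were *Nr1d1* to *Nr1d2*, with a mean log2 difference of −0.07, and *Nfil3* to *Per1*, with 0.09. *Dbp* to *Arntl* was lower and *Dbp* to *Per1* higher in *Slc39a8*-NSKO mice, with mean log2 differences of −0.12 and 0.59.

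The glucocorticoid-responsive clock output *Fkbp5* had 8.69, 12.3 and 13.9 CPM in control mice and 12.1, 16.2 and 20.9 CPM in *Slc39a8*-NSKO mice. Its highest mouse divided by its lowest was larger than for 99.6% of genes with a mean of at least 10 CPM, and *Per1* and *Per2* were at 99.3% and 99.1% of the same scale.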
